A study of Mus musculus with 4 samples.

Results

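The genes described here are 10 genes of iron handling measured in mouse liver: the hepcidin genes Hamp and Hamp2, the iron sensing genes Bmp6, Hfe2, Hfe and Tfr2, the plasma iron carrier Trf, the iron transporters Slc11a2 and Slc40a1, and the ferritin heavy chain Fth1. They were chosen by name. The array lists 9 of the 10 names, with 11 probes, and Tfr2 under the older name Trfr2, which brings the set to 10 genes and 12 probes among 36161 gene names and 55681 probes. Liver RNA came from microsomic (M) and control (C) C57BL/6J mice at embryonic day 20 per the labels, whereas the methods of the study describe newborn C57BL/6 N mice. In those methods M mice were born with a weight below a low percentile of the colony and C mice with a weight near the colony mean, as littermates, without treatment or an engineered allele. The deposited arrays are 1 for M females (MF), 1 for M males (MM), 1 for C females (CF) and 1 for C males (CM), whereas the methods describe several replicate experiments per group. Neither the labels nor the methods say whether the RNA of an array was pooled from several animals.

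Iron leaves cells through ferroportin, the product of Slc40a1, and hepcidin is the liver hormone that binds ferroportin and removes it from the cell surface, so that more hepcidin means less iron in plasma. Hepatocytes raise hepcidin transcription when BMP6, which liver endothelial cells secrete, engages BMP receptors together with the coreceptor hemojuvelin (Hfe2), and when transferrin loaded with iron is sensed through Hfe and transferrin receptor 2. Inflammation raises hepcidin through IL-6 and STAT3, and erythroblasts lower it through erythroferrone. The mouse carries a pair of neighbouring hepcidin genes, and the peptide of Hamp is the one known to act on ferroportin.

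Since the hepcidin genes are near copies, the sequences by which the array tells them apart are shown. Each probe has 60 bases and lies on the minus strand of chromosome 7 (mm9), at chr7:31727490-31727549 for Hamp and chr7:31707520-31707579 for Hamp2, in the transcribed sequence of the gene. Capitals mark the bases that differ between the probes in the best ungapped alignment.
Hamp: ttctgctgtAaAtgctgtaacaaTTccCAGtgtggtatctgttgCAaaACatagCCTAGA
Hamp2: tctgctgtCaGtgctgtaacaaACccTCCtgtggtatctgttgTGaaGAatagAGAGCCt
Of 59 aligned bases 42 were identical (71.2%) and 17 differed. Some of the signal of one probe may therefore come from the other transcript, and this was not tested.

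The 250 bases before the start site of each gene are shown because the motifs of the BMP and STAT3 routes into hepcidin are known from this stretch. The sequences are those of RefSeq on GRCm38.p6, at chr7:30944030-30944279 for Hamp and chr7:30924182-30924431 for Hamp2, both on the minus strand. Capitals mark GGCGCC, the core of the known BMP responsive element, or the bases opposite it, and TTCNNNGAA, the letters that STAT3 is known to bind.
Hamp: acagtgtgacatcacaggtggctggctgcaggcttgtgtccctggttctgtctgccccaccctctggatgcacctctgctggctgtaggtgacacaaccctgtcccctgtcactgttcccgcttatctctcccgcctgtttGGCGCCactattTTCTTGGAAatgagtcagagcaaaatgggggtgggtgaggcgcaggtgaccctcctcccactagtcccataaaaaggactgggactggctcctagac
Hamp2: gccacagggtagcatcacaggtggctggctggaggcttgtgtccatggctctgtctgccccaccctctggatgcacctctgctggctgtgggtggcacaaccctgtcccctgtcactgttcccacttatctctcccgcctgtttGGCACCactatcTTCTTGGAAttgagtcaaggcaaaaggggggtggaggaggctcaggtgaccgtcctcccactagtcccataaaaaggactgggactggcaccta
In a gapped alignment 227 of 253 positions were identical (89.7%). GGCGCC began at base -109 from the start site of Hamp, and Hamp2 had GGCACC there, at base -106, a G4A change counted from the first base of the motif. TTCNNNGAA was present in both, at -97 in Hamp and -94 in Hamp2. Both motifs read the same on either strand, and among 32851 RefSeq promoters of this length 9.59% held GGCGCC and 7.02% held TTCNNNGAA. The table has a promoter for 6 of the 10 genes, 9 promoters in all; among these genes GGCGCC was found in 1 and TTCNNNGAA in 2, both named above. CACGTG, the letters bound by E-box factors and the same on either strand, was found at -127 of Bmp6, and in 6.02% of all promoters. A match of letters is a description and no evidence of binding.

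Levels are log2 processed signals relative to the 75th percentile of their array, which is 0 on this scale, and levels of different probes are not compared with each other. All 12 probes were well above background on all 4 arrays and none carried an outlier flag. With 1 array per group a difference has no error, and 1.5-fold, the fold of the study's methods, was taken as the threshold. The only yardstick of noise is within an array: single spots of the same probe gave an SD of a log2 difference of 0.39 in MF vs CF, 0.39 in MM vs CM, 0.42 between CM and CF and 0.36 between MM and MF. This does not cover differences between animals.

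The arrays carried the markers of liver, and markers of other organs differed between them. All 10 hepatocyte markers were well above background on all arrays. On CF the summed signal of 10 heart muscle markers was 183 times the 75th percentile, against 0.84 to 2.71 times elsewhere. Of the 10, 9 were lower in MF than in CF past the fold, and in MM vs CM 5 were lower and 1 higher. On MF the sum of 10 intestine epithelium markers was 73.8, against 31.8 on MM, 7.32 on CF and 6.42 on CM, and 7 of the 9 that could be compared were higher in MF than in CF. The sum on MM was nearly all Fabp2, with a level of 4.98 there, and 5 of the 10 were well above background on that array, 2 of those compared being higher and 3 lower than on CM. Among 10 macrophage and Kupffer cell markers 8 were higher in MF than in CF, with sums of 254 on MF and 111 to 125 elsewhere. Xist was well above background on MF and CF alone, and Ddx3y, Eif2s3y and Uty on MM and CM alone, which fits the labelled sexes. The remaining sex marker, Kdm5d, was not well above background on any array. M and C arrays also lay in different columns of the slide, so that slide position and condition cannot be told apart.

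**Figure D1:**
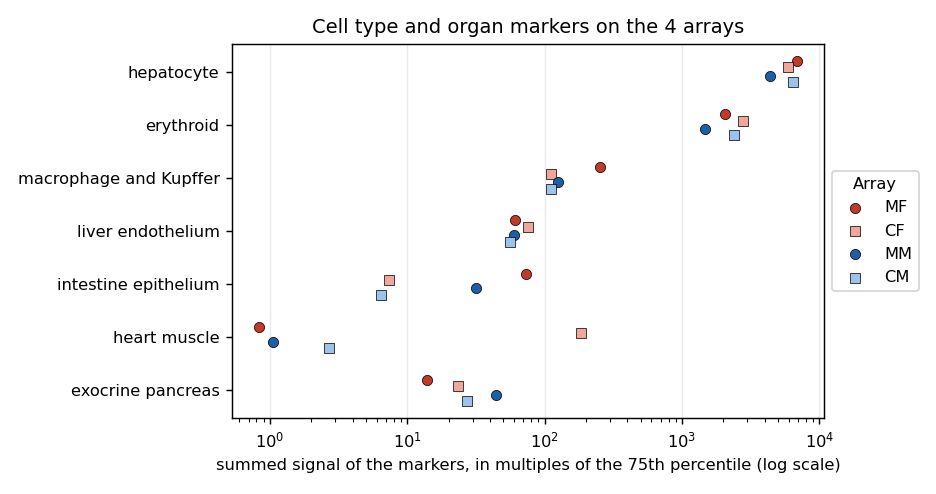
Summed signal of the markers of each cell type or organ on the 4 arrays, in multiples of the 75th percentile of the array (log axis); each point is 1 array and points are offset vertically for legibility. Heart muscle markers stand at 183 on CF, and intestine markers are highest on MF at 73.8.

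Hamp was the member with the largest difference between M and C, and the direction was opposite in the sexes. Its level was 4.25 on MF, 6.33 on CF, 5.74 on MM and 5.13 on CM, and the unscaled processed signals were 16976, 54475, 49528 and 21908. MF was thus the lowest array and CF the highest, with both males in between. Hamp was 4.24-fold lower in MF than in CF (log2 -2.08), while MM exceeded CM by 1.53-fold (log2 0.62). The gap between neighbours in the order MF, CM, MM, CF was larger than the spot SD each time. The female difference lay at percentile 1.90 of the 25536 genes compared and the male difference at percentile 83.3 of 26313. The difference of the sexes in M against C was -2.70, and 356 of 23966 genes (1.49%) had a value at least as negative. There was no replicate array with which to test this difference.

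The female value held under every setting tried and the male value did not. Over 12 ways of scaling and filtering, the reported one included, Hamp lay between -2.53 and -1.68 in MF vs CF, past the fold in all 12. In MM vs CM it lay between -0.01 and 1.18, past the fold in 10 of 12, and normexp background correction with quantile normalization removed it. Other filters on dim probes, averaging probes and keeping flagged spots could only repeat the reported Hamp value. Hamp has 1 unflagged probe, well above background on every array. The same holds for the other members of the 10 genes, except that averaging probes can move Trf and Slc11a2. Of the hepatocyte markers 3 of 10 were higher and 1 lower in MF than in CF past the fold, with a median difference of 0.23, and with the arrays centred on these markers Hamp stood at -2.22 in females and 0.99 in males. The heart markers on CF and the intestine and macrophage markers on MF moved with the female comparison, and their part in the Hamp value was not tested. In whole liver, fewer hepatocytes and less RNA per hepatocyte cannot be told apart.

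Hamp2, whose peptide is not known to act on ferroportin, was lower in M than in C in both sexes. Its level was -3.40 on MF, -1.53 on CF, -3.08 on MM and -2.32 on CM. Both M arrays lay below both C arrays, and the M arrays were closer to each other than the spot SD. Hamp2 was 3.66-fold lower in MF than in CF (log2 -1.87) and 1.70-fold lower in MM than in CM (log2 -0.77). The female difference ranged from -2.01 to -1.40 over the settings and passed the fold in 12 of 12, whereas the male one ranged from -0.77 to -0.21 and passed it in 7 of 12. Of 19298 genes measured above background on every array, 4.04% were lower in M past the fold in both sexes. The unscaled Hamp2 signal was low, 84.5 on MF against 234 on CF. The Hamp probe read 16976 and 54475 there, and how much of the Hamp2 signal came from the Hamp transcript was not tested. The smallest female difference of Hamp2 came with normexp background correction and quantile normalization. The heart markers on CF lay beside the female Hamp2 value too. In MM vs CM 5 of the 10 heart markers were lower and 1 higher past the fold, with a median of -0.98. Of the exocrine pancreas markers 5 were lower and 2 higher there. The part of these markers in the Hamp2 values of either sex was not tested.

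**Figure D2:**
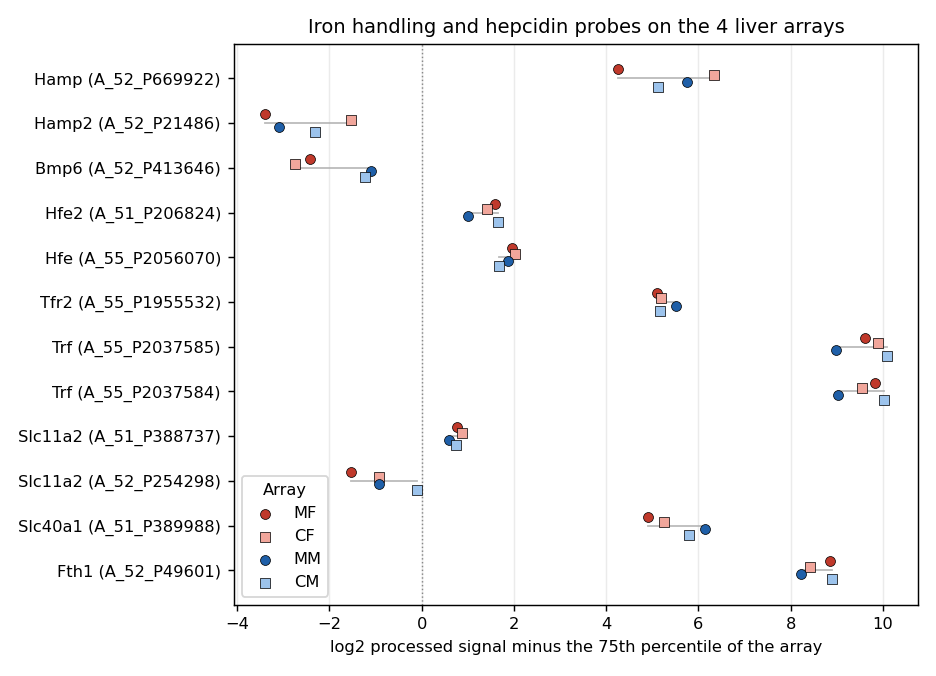
Level of each of the 12 probes on the 4 arrays, on the log2 scale with the 75th percentile of the array at 0; each point is 1 array, grey lines span the range of a probe, and points are offset vertically. Positions are to be compared within a row: Hamp runs from 4.25 on MF to 6.33 on CF, and both M arrays are below both C arrays for Hamp2.

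Of the 10 genes, Hamp and Hamp2 alone passed 1.5-fold in MF vs CF, both lower in MF. Among all 25536 genes compared 40.9% passed it, 21.0% lower and 19.9% higher, so 2 of 10 was below the share of all genes. In MM vs CM 5 of 10 passed: Hamp was higher, and Hamp2, Trf, Fth1 and Hfe2 were lower. There the share of all 26313 genes was 40.8%, with 23.1% lower and 17.7% higher. At 2-fold Hamp and Hamp2 remained in females, beside 19.7% of all genes, and Trf alone in males, beside 22.4%. The median difference of the 10 genes was -0.09 in females and 0.00 in males, beside -0.04 and 0.00 over all genes. The count itself therefore did not set these genes apart from the rest of the array in either sex.

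**Figure D3:**
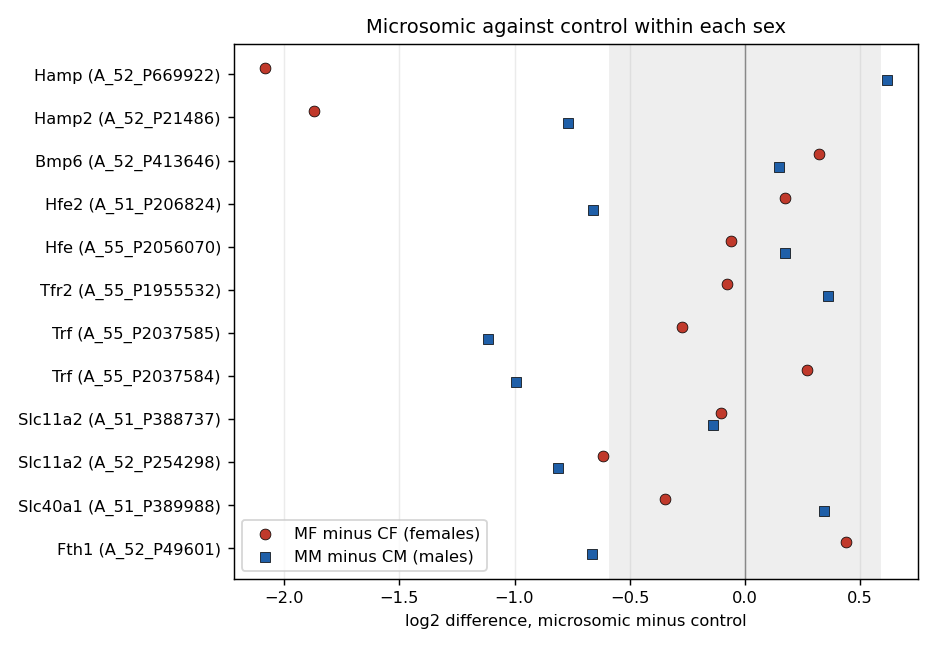
Log2 difference of M against C for each probe, with females as circles (MF minus CF) and males as squares (MM minus CM); each point rests on 1 array per group, and the grey band spans 1.5-fold either way. Hamp lies at -2.08 in females and 0.62 in males, and Trf at -1.12 and -0.99 in males.

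Of the genes that sense iron and signal to hepcidin, Bmp6, Hfe and Tfr2 differed by less than 1.5-fold between M and C in both sexes. Bmp6, the ligand, had levels of -2.43 on MF, -2.75 on CF, -1.09 on MM and -1.24 on CM, which gives differences of 0.32 in females and 0.15 in males. These are under the spot SD, and the arrays fell apart by sex rather than by condition. Hfe, an MHC class I like protein that associates with transferrin receptors, had levels of 1.96 on MF, 2.02 on CF, 1.86 on MM and 1.69 on CM. Tfr2, the receptor for iron loaded transferrin in hepatocytes, had levels of 5.10 on MF, 5.18 on CF, 5.52 on MM and 5.16 on CM. Their differences, -0.06 and -0.08 in females and 0.17 and 0.36 in males, did not exceed the spot SD. Hfe2 encodes hemojuvelin, the BMP coreceptor. Its level was 1.58 on MF, 1.41 on CF, 1.002 on MM and 1.66 on CM, with MM the lowest array. Hfe2 was 1.58-fold lower in MM than in CM (log2 -0.66) and differed by 0.17 in females. The male value was below 0 in all 12 settings, and past the fold in 8 of them.

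Trf, which encodes the plasma protein that carries iron to cells, was lower in MM than in CM on both of its probes. The brighter probe, at base 2068 of the transcript, read 9.61 on MF, 9.88 on CF, 8.98 on MM and 10.09 on CM. The other, at base 2271, read 9.82 on MF, 9.55 on CF, 9.02 on MM and 10.02 on CM. MM was the lowest array on both probes and CM the highest. In males Trf was 2.17-fold lower on the brighter probe (log2 -1.12) and 1.99-fold lower on the other (log2 -0.99), and normexp with quantile normalization turned the gene to 0.45. In females the probes disagreed in sign, at -0.27 and 0.27. Both probes were saturated on MF alone, so the MF level may be higher than read. Trf passed the fold in MM vs CM in 9 of 12 settings.

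Fth1, the ferritin subunit that stores iron, had levels of 8.86 on MF, 8.42 on CF, 8.22 on MM and 8.89 on CM. It was 1.59-fold lower in MM than in CM (log2 -0.67), below 0 in all 12 settings and past the fold in 6, and differed by 0.44 in females, which did not pass. The light chain Ftl1 stood at 0.38 in females and at -0.61 in males, or 0.49 there under normexp and quantile normalization. Under quantile normalization alone the female values turned to -0.35 for Fth1 and -0.26 for Ftl1. The hepatocyte markers moved alongside Trf, Fth1 and Hfe2 in males: 5 of 10 were lower and 1 higher in MM than in CM, with a median of -0.47 and sums of 4340 on MM and 6444 on CM. With the arrays centred on these markers Trf stood at -0.74, and Fth1 at -0.29 and Hfe2 at -0.28 no longer passed the fold.

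The transporters did not give a difference between M and C that held across probes or settings. Slc11a2 (DMT1) brings iron out of endosomes and, in the gut, into the cell, and its probes disagreed. The brighter probe, at base 2961 of the transcript, read 0.76 on MF, 0.86 on CF, 0.60 on MM and 0.74 on CM, all 4 within the spot SD. The other, at base 253, read -1.54 on MF, -0.93 on CF, -0.92 on MM and -0.10 on CM. On that probe Slc11a2 was 1.53-fold lower in MF than in CF (log2 -0.62) and 1.76-fold lower in MM than in CM (log2 -0.81), whereas the brighter probe gave -0.10 and -0.14. Slc40a1, the exporter on which hepcidin acts and which Kupffer cells and hepatocytes express, read 4.91 on MF, 5.26 on CF, 6.13 on MM and 5.79 on CM. Its differences of -0.35 in females and 0.34 in males were under the fold, with ranges over the settings of -0.80 to 0.05 and -0.87 to 0.90. The macrophage and intestine markers were higher on MF, where Slc40a1 was lowest, and their part in these values was not tested.

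**Figure D4:**
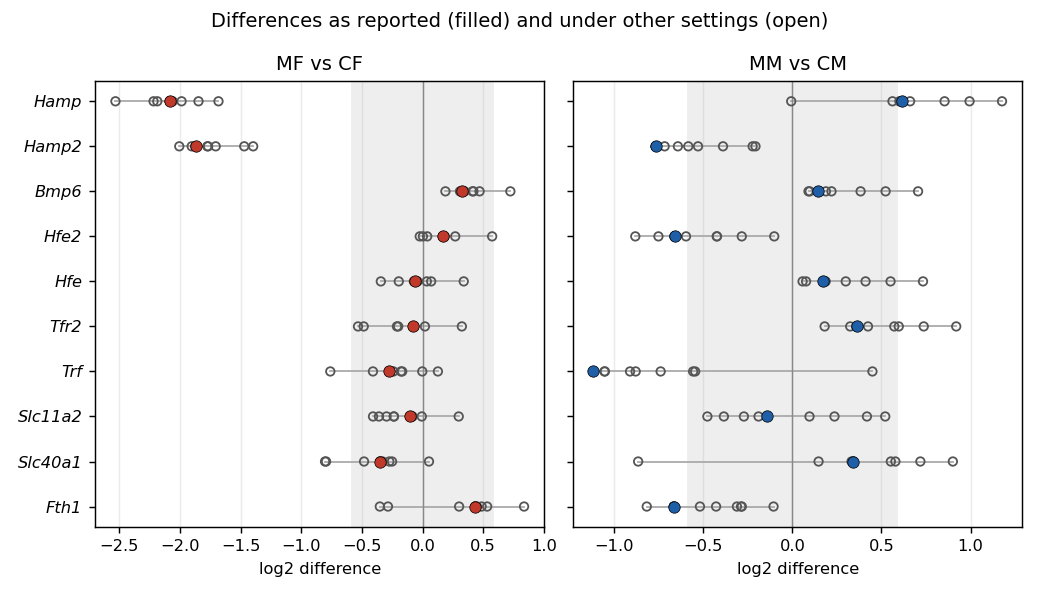
Log2 difference of M against C for each of the 10 genes as reported (filled) and under the other settings (open), females left and males right; the grey band spans 1.5-fold. In females Hamp and Hamp2 stay outside the band under all settings, and in males Hamp runs from -0.01 to 1.18 and Trf from -1.12 to 0.45.

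A model over all 4 arrays, in which the sexes stand in for replicates, called none of the 10 genes. limma with condition and sex as terms called 0 of 19298 genes at an adjusted p of 0.05 (0% called), the smallest adjusted p being 0.966, and 851 genes (4.41%) had an unadjusted p under 0.05. Hamp2 had the lowest unadjusted limma p of the 10 genes, 0.0223, with an adjusted p of 0.995 and a log2 difference of -1.32 (SE 0.46), lower in M in both sexes. The limma estimate for Hamp was -0.73 (SE 0.64, adjusted p = 0.995), an average of opposite signs. With 1 residual degree of freedom the model has little reach: of 200 genes raised by log2 2 in data simulated for this comparison over 19298 genes it recovered 0, and of 200 raised by log2 4 it recovered 198.

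Bmp6 was higher in males than in females in both conditions. The difference was 1.52 between CM and CF (2.86-fold) and 1.34 between MM and MF (2.53-fold), past the fold in all 12 settings in both. Of 19298 genes measured above background on every array, 7.58% were higher in males past the fold in both conditions, while 46.3% of genes passed the fold either way between the C arrays, and 49.4% between the M arrays. Of 10 markers of liver endothelium, the known source of Bmp6, none was higher and 2 were lower in CM than in CF past the fold (median -0.36), and 1 was higher and 2 were lower in MM than in MF (median 0.05). Their part in the Bmp6 values was not tested. Hamp differed between the sexes in opposite directions, 2.31-fold lower in CM than in CF (log2 -1.21) and 2.82-fold higher in MM than in MF (log2 1.49). Hamp2 was lower in CM than in CF (log2 -0.79) and differed by 0.32 between MM and MF. Slc40a1 was 2.34-fold higher in MM than in MF (log2 1.23), past the fold in all 12 settings, and by 0.54 between CM and CF it did not pass. Trf and Fth1 were both lower in MM than in MF, each at -0.63 and past the fold in 8 of 12 settings, which makes 3 genes higher and 2 lower there. Between CM and CF 1 was higher and 2 were lower. These comparisons use the same 4 arrays as those of M against C, and CF, with its heart markers, and MF, with its intestine markers, enter them too.

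Id1 and Id2, which BMP signalling induces, were lower in MF and higher in MM against their controls, as Hamp was. Of 6 BMP response genes, 3 were lower and 1 higher in MF than in CF past the fold, with a median of -0.57, and 3 were higher and none lower in MM than in CM, with a median of 0.74. Over all genes 21.0% were lower and 19.9% higher in females and 17.7% higher in males, with medians of -0.04 and 0.00, and a list of 6 is too short to set against these shares. Id1, a direct SMAD target that is used as a readout of BMP signalling in liver, was -0.87 in females and 1.29 in males. Its levels were 2.26 on MF, 3.12 on CF, 3.59 on MM and 2.30 on CM. Id2 and Id3, outside the rule for naming genes and named after their values were seen, stood at -0.80 and -0.77 in females, and at 1.34 and 0.17 in males. The inhibitory SMADs followed another course, with Smad6 at 0.68 and 0.34 and Smad7 at 0.15 and 1.13. Atoh8, a transcription factor that responds to BMP, gave -0.37 and 0.04. The heart markers on CF and the liver endothelium markers, 2 of 10 lower in MF than in CF with a median of -0.34, moved with the female values, and their part was not tested. Over all genes, 3.02% of 19298 were lower in MF and higher in MM past the fold, and Hamp, Id1 and Id2 were among them.

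**Figure D5:**
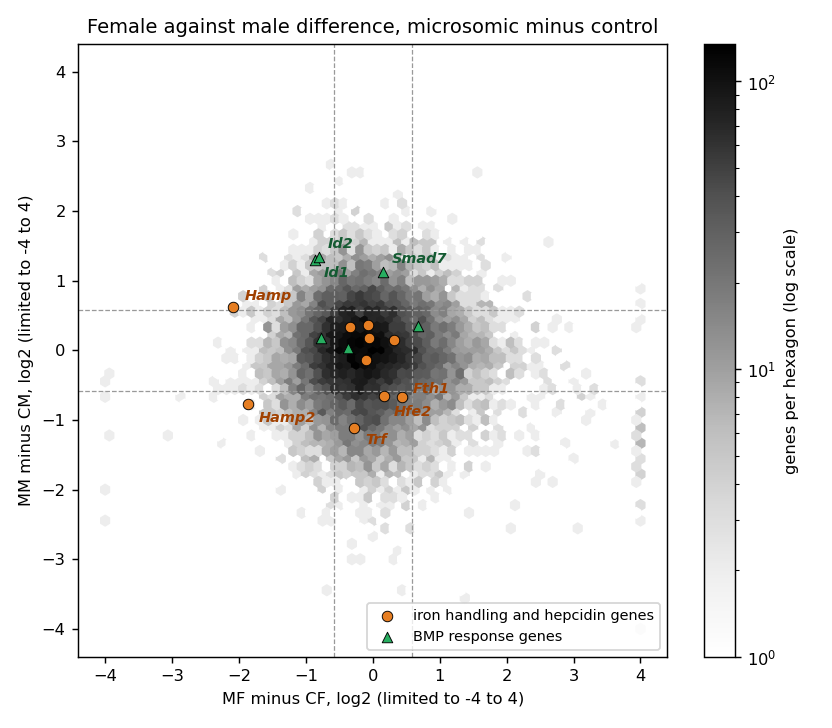
Log2 difference of M against C in males against that in females for the 19298 genes measured above background on every array (grey hexagons, shaded by number of genes on a log scale, values limited to -4 to 4), with the 10 iron genes as circles and the BMP response genes as triangles; dashed lines mark 1.5-fold. Hamp, Id1 and Id2 lie in the upper left field, lower in females and higher in males, and Hamp2 in the lower left.

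Of 16 ligands, receptors, SMADs and regulators of the BMP route 4 were higher and none lower in females past the fold (median 0.22), and 5 were higher and 1 lower in males (median 0.26). Over all genes 19.9% were higher in females and 17.7% in males, with medians of -0.04 and 0.00. The 4 in females were Bmp4, Tmprss6, Furin and Fam132b, and the 5 in males Bmpr2, Smad1, Smad5, Smad9 and Fam132b, with Fkbp1a the lower one. Members of the lists that are named for such counts, apart from those picked by rule, were named after their values were seen. Fam132b, which encodes erythroferrone, the signal of erythroblasts that lowers hepcidin, was the only one of the 16 higher past the fold in both sexes, at log2 1.44 (2.71-fold) in females and 0.89 (1.85-fold) in males. Its levels were -1.44 on MF, -2.88 on CF, -2.94 on MM and -3.83 on CM. The lowest signal well above background on CM lay at -4.68, so Fam132b was dim there. It passed the fold in 12 of 12 settings in females and in 10 of 12 in males, where the value fell to 0.41. Among all genes 2.90% were higher in M past the fold in both sexes. Of 10 erythroid markers, 2 were higher and 3 lower in MF than in CF, and 1 was higher and 2 lower in MM than in CM. Tmprss6, the protease that cuts hemojuvelin and so restrains hepcidin, stood at 0.72 in females and 0.47 in males. Bmp4, a BMP ligand, had the largest female difference of the 16, with MF above CF by 6.88-fold (log2 2.78) and a male difference of 0.05, and the intestine markers on MF moved with it.

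Of 12 genes of the IL-6 and STAT3 route 5 were higher and 2 lower in females past the fold (median -0.04), and 1 was higher and 4 lower in males (median -0.20), beside 40.9% and 40.8% of all genes past the fold either way. The higher ones in females were Il6, its receptor Il6ra, Socs3, Saa3 and Crp, and the lower ones Saa2 and Orm1. In males Il6 was the higher one, and Jak2, Saa1, Saa3 and Orm1 were lower. Il6 itself was well above background on MF and MM and not on CF or CM, so that MF exceeded CF by at least 2.44-fold and MM exceeded CM by at least 2.65-fold. The acute phase gene Orm1 was lower in both sexes, at -1.14 in females and -1.09 in males. Socs3, a feedback inhibitor that STAT3 induces, and the acute phase gene Saa3 stood at 1.46 and 1.08 in females and at 0.22 and -1.81 in males. The macrophage and Kupffer cell markers, with a median of 0.73 in MF vs CF, and the intestine markers on MF moved with these female values, and their part was not tested.

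Among 29 other genes of iron uptake, storage and export, 6 were higher and 3 lower in MF than in CF past the fold (median -0.17), and 5 were higher and 6 lower in MM than in CM (median -0.02), no larger a share than the 40.9% and 40.8% of all genes. The higher ones in females were Slc46a1, Slc48a1, Cybrd1, Heph and the iron binding proteins of neutrophils, Lcn2 and Ltf. The lower ones in males were Ftl1, Steap3, Cybrd1, the mitochondrial iron importer Slc25a28, the heme degrading enzyme Hmox1 and Mon1a, the last with the largest difference at -1.56. The lower ones in females were Tfrc, Ireb2 (IRP2) and the iron-sulfur scaffold Iscu, and the higher ones in males Aco1 (IRP1), Steap4, Slc39a14, Slc46a1 and Slc48a1. Slc46a1 and Slc48a1 alone among the 29 passed the fold the same way in both sexes. Slc46a1, a transporter of folate and heme, was 1.90-fold higher in females and 2.01-fold higher in males. It passed the fold in 11 of 12 settings in each sex, with the male log2 value falling to 0.26. The intestine markers on MF moved with its female value, and their part was not tested. Among all genes 2.90% were higher in M past the fold in both sexes. Slc48a1, which moves heme out of lysosomes and is known from macrophages that recycle red cells, read 6.37 on MF, 3.86 on CF, 5.03 on MM and 4.32 on CM. MF exceeded CF by 5.68-fold (log2 2.51) and MM exceeded CM by 1.64-fold (log2 0.72), the male value falling to -0.03 under normexp and quantile normalization. The macrophage and Kupffer cell markers, 8 of 10 higher in females and 3 higher and 1 lower in males, moved with Slc48a1, and their part was not tested. Tfrc, the receptor that takes up transferrin and is abundant in erythroblasts, was -0.59 in females, at the threshold and past it in 7 of 12 settings, and -0.18 in males. Cybrd1 and Heph, which serve iron uptake in the intestine, stood at 1.54 and 0.62 in females and -0.83 and 0.23 in males, alongside the intestine markers on MF.

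Of 8 mRNAs with an iron responsive element, through which the proteins IRP1 and IRP2 control translation or decay, 7 had a probe without a flag. In females 1 was higher, Alas2, and 2 lower, Epas1 and Tfrc, and in males Fth1 and Ftl1 were lower and none higher. The medians were -0.10 and -0.18, and over all genes 40.9% and 40.8% passed the fold either way.

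Among the genes whose course over the 4 arrays was closest to that of Hamp were a lincRNA probe, the transcript CA492558, Abce1 and Grrp1, with Euclidean distances of 0.16, 0.19, 0.30 and 0.35 after each gene was centred on its own mean. They were taken from 3009 genes with a range of at least 80% of that of Hamp. None of them was in the gene lists above. With 4 arrays such likeness is a description. Hamp2 lay at a distance of 1.06, since it was not high on MM.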

How the data were processed

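Cy3 labelled liver RNA was read in 1 colour on 4 Agilent arrays that share a slide. Scans were quantified by the authors in Agilent Feature Extraction 10.7.3.1 (protocol GE1_107_Sep09). They deposited a processed signal per spot, a linear intensity from which the software had subtracted a fitted background; arrays were not normalized to each other, and the value table was checked to equal this signal in all 62976 spots. Over the 59305 spots that are no controls, the 75th percentile was 893 (MF), 925 (MM), 676 (CF) and 628 (CM), and 56.1% to 65.3% were well above background.

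Signals were put on the log2 scale and the 75th percentile was subtracted. A spot flagged as an outlier on any of the arrays was dropped (1754 spots), spots of a probe were averaged, and the brightest probe stood for the gene, which left 35577 genes. A pair of arrays was compared for genes well above background on either of them. A dim array entered as the higher of the lowest signal well above background there and the probe's own, so that the fold is a lower bound. A pair of single arrays gives no p-value. limma 3.58.1 (R 4.3.3) was fitted to all 4 arrays, with the sexes as replicates, and tested on simulated data. Benjamini-Hochberg adjustment ran over 19298 genes. With the sex term, the spread behind its p-values is the disagreement between the sexes in M against C on these arrays only. That spread is moderated over all genes and is no spread between replicate arrays. A difference of opposite sign in the sexes, as for Hamp, enters it as noise.

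Named are all probes of the 10 genes, the genes of the other lists past 1.5-fold the same way in both sexes and well above background on all arrays, Id1, Smad6, Smad7, Atoh8, Tmprss6, Tfrc and Ftl1, and the 5 genes most like Hamp, of which 1 is not reported here. The genes, lists and rules were chosen with earlier results of these data known. The array annotation gives probe positions on mm9, and Tfr2 was matched through its RefSeq synonym. Of 10 exocrine pancreas markers, 5 were higher and 1 lower in MF than in CF past the fold, and 2 were higher and 5 lower in MM than in CM. Of 10 liver endothelium markers, 2 were lower in MF than in CF and 1 higher in MM than in CM. The alternatives were quantile normalization, centring on the median, normexp (offset 50) with quantile normalization, no scaling, the mean over probes, flagged spots kept, other filters on dim probes, removal of trends with probe GC content and array position, a 2-fold threshold, and for limma an intensity trend or no sex term. Centring on hepatocyte markers, and all settings for the comparisons of the sexes, were added after seeing the data.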

Additional observations from a re-analysis of the deposited data

Results flagged for a closer look

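Hamp differed between M and C in opposite directions in the sexes, at log2 -2.08 in MF minus CF and 0.62 in MM minus CM, each from 1 array per group. The male value ran from -0.01 to 1.18 over the settings and was past the fold in 10 of 12, so the opposite direction did not hold under every setting. The difference between the sexes was not tested, because no group has a second array.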

How the results depend on the processing

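The precision of every value is limited by 1 array per group, and no replicate can be left out. No paired analysis was possible because each group has 1 array and no replicate number to pair; limma, with sex as a term, sets M against C within each sex.

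Of the 10 genes, the number past the fold in MM vs CM (5 as reported) was 3 with centring on the median or removal of the position trend, 2 with quantile normalization, 2 with normexp and quantile normalization, and 1 at 2-fold. In MF vs CF (2 as reported) it was 4 with quantile normalization and 4 without scaling, and 3 with normexp and quantile normalization. With normexp and quantile normalization the sign in MM vs CM turned for Hamp (-0.00634), Trf (0.45), Ftl1 (0.49) and Slc48a1 (-0.0337), and in MM vs MF for Trf (0.22). Quantile normalization turned Trf (0.31) and Fth1 (0.46) in MM vs MF. Without scaling the medians of the lists in MF vs CF and MM vs CM were 0.31 and 0.56 for the 10 genes, 0.23 and 0.54 for the other iron genes, 0.62 and 0.82 for the BMP and SMAD pathway, -0.17 and 1.30 for the BMP response genes, 0.36 and 0.36 for IL-6 and STAT3, and 0.30 and 0.38 for the iron responsive element mRNAs, and limma called 9 genes, all higher in M. That setting moved the median of all genes to 0.34 and 0.50, and centring on the median moved it to 0.03 and 0.18. The share of higher among the genes past the fold was 48.5% in MF vs CF and 43.4% in MM vs CM as reported, 57.1% and 61.0% with centring on the median, 79.7% and 78.4% without scaling, and 37.7% and 69.7% with centring on hepatocyte markers. Of 231 values of the named genes under the 11 alternatives, 194 in females and 197 in males stayed within the spot SD of the reported value. In females the other 37 moved further, and no value past the fold changed sign. In males 30 moved further without such a change of sign, and the 4 above changed sign. Of 220 values in the comparisons of the sexes 181 stayed within the spot SD. A further 36 moved beyond it without such a change of sign, and 3 changed sign in this way. All these genes were well above background on every array, so the other filters on dim probes could not move their values. Averaging probes or keeping flagged spots could not move a gene with 1 unflagged probe. Such unchanged values are counted as within the spot SD, and the counts of settings given above include the reported one. Values under the fold changed sign too, such as Fth1 (-0.35) and Ftl1 (-0.26) in MF vs CF under quantile normalization and Slc40a1 (-0.87) in MM vs CM under normexp and quantile normalization. The cause of these changes was not tested.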
